A study of Caenorhabditis elegans with 4 samples.

Results

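A set of 52 genes that the deposited expression table lists only under their sequence identifiers was at least 1 higher on the log2(FPKM + 0.5) scale in cisplatin-treated *C. elegans* than in untreated animals, in each of the 2 same-numbered pairs of libraries. FPKM counts fragments relative to exon length and to the mapped fragments of the library, so that genes can be compared per length. The genes were selected on this difference, so the size of the difference describes them and is not a result about them, and no p-value is given for it. The same holds where the groups are said not to overlap, because the selection makes that likely. The table holds 15408 genes, of which 8516 carry no name, and 15065 genes averaged 0.5 FPKM or more over the libraries with an estimate in each. Of these, 8323 carried no name. The conditions were met by 57 unnamed genes, and 5 of them were set aside because they stand on a list of 10 genes left out of the selection, which leaves 52.

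The libraries came from mixed-stage populations of N2, the wild-type strain of *C. elegans*, kept at 20°C. In 2 populations the animals were exposed to 60 µg/ml cisplatin for 24 h, and 2 populations were untreated controls. Libraries were made after poly-A capture and carry the numbers 1 and 2 in either group. Because all stages were harvested together, fewer animals with a tissue and less RNA of a gene in that tissue cannot be told apart.

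Cisplatin is a platinum compound that binds DNA and forms crosslinks, and it also reacts with thiol groups. In *C. elegans*, exposure to toxic agents or pathogens is known to raise transcripts of secreted and intestinal proteins, among them those with CUB-like domains and C-type lectin domains, together with enzymes of detoxification. Many genes of such families have no name beyond the sequence identifier, which gives the cosmid or YAC clone on which the gene was found and its number there. Of the 52 genes, 7 have a name in a current annotation. These are *clec-209* (F56A4.2), *gldi-6* (C16C8.13), *mul-1* (F49F1.6), *cld-1* (C32H11.9), *nxnr-1* (Y52E8A.3), *nssp-90* (C30F2.4) and *mbug-1* (F55G11.4). A current name was found for 1840 of the 8323 unnamed genes tested, or 22.1%, against 13.5% of the 52.

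Over all genes tested, 0.724% were at least 1 higher with cisplatin in both pairs. The share was 0.771% of genes with a name, 52 of 6742, and 0.685% of unnamed genes before the 10 were left out. The median difference of the 52 genes was 1.73 between cisplatin 1 and control 1 and 1.41 between cisplatin 2 and control 2, beside medians of 0.25 and -0.00 over all genes tested. The median log2 fold change was 1.64 over the 52 genes and 0.13 over all genes. Without 10 members listed at 0 in both control libraries, for which no fold change can be given, the median was 1.55 over 42 genes.

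Read totals are not part of the table, but each FPKM value comes with a lower and an upper bound, and the distance of a bound from the midpoint of the pair, as a percentage of that midpoint, gives a relative error from counting. The median of this half-width over all genes tested was between 18.7% and 23.2% in the 4 libraries. In both cisplatin libraries it was at most 50% for 23 of the 52 genes, or 44.2%. The share was 75.1% of all genes tested, 67.6% of unnamed genes tested and 73.1% of the 52 named genes that met the same conditions. The 23 genes are called the better-covered genes below, and the other 29 the thinly covered genes. The division uses only the cisplatin libraries, in which the selection made these genes high. Bounds in the controls did not enter it and were wide in some of the 23. In control 1 and control 2 the half-width was 78.9% and 100% for F01D5.2, and 51.2% and 56.8% for F17B5.8. For *nxnr-1* it was 100% in control 1. The mean over the 4 libraries had a median of 9.60 FPKM in the better-covered genes and 1.61 FPKM in the thinly covered ones. No test was made of these shares, because the level of a gene entered the selection.

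**Figure D1:**
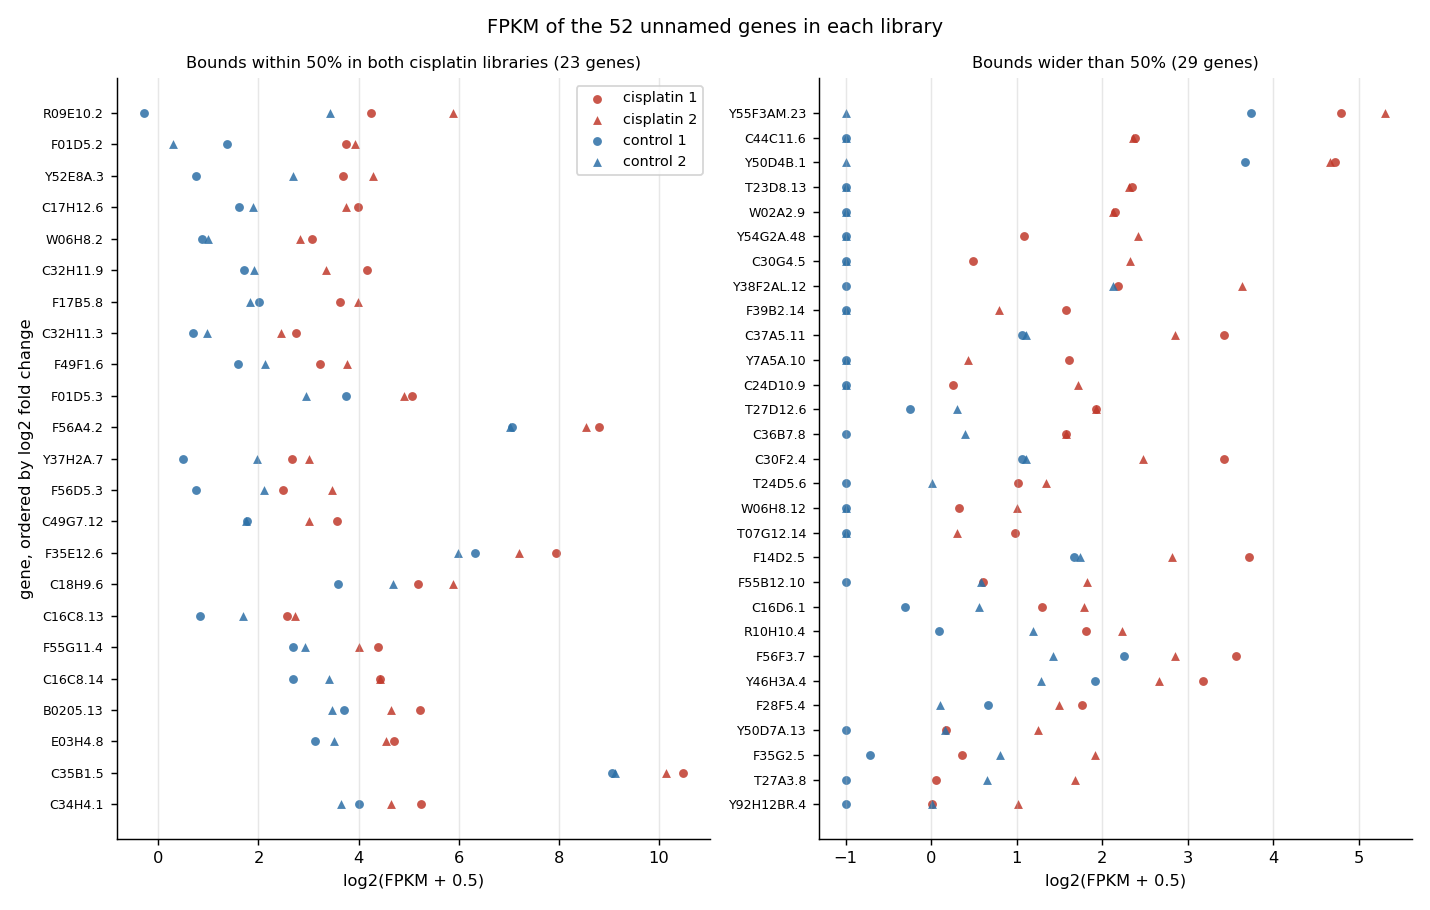
Level of each of the 52 genes as log2(FPKM + 0.5), with 1 row per gene, in cisplatin libraries (red) and control libraries (blue) numbered 1 (circles) and 2 (triangles). The left panel holds the 23 genes whose deposited bounds are within 50% in both cisplatin libraries, and the right panel the other 29, of which 10 lie at -1, listed at 0 FPKM, in both control libraries.

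**Figure D2:**
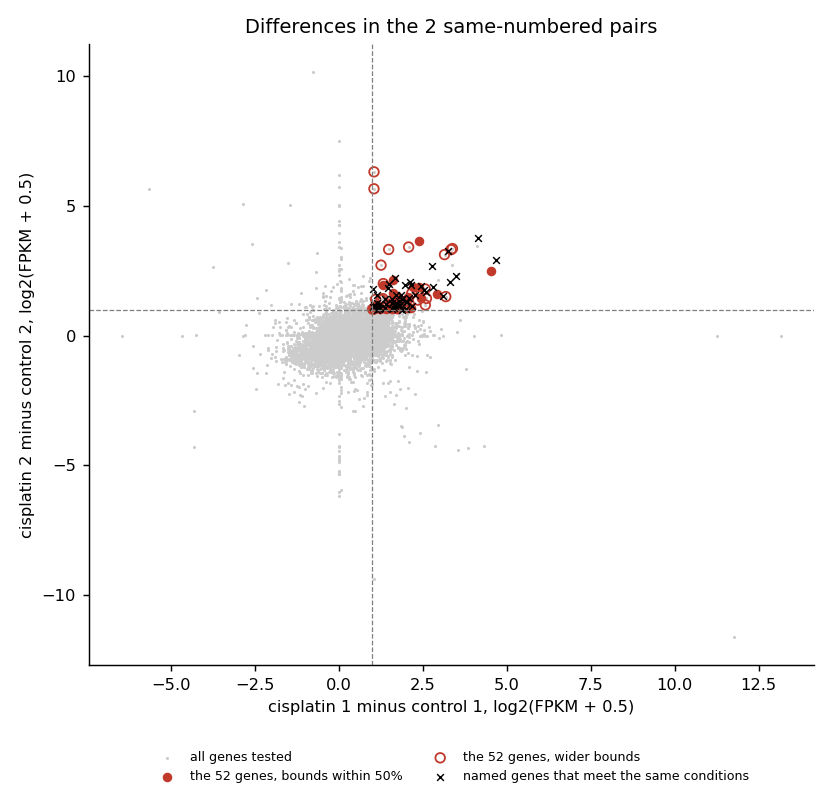
Difference between cisplatin 1 and control 1 (horizontal axis) and between cisplatin 2 and control 2 (vertical axis) on the log2(FPKM + 0.5) scale for all 15065 genes tested (grey), the 52 genes (red, filled where the bounds are within 50%) and 52 named genes that met the same conditions (crosses). Dashed lines mark a difference of 1, so that the red points lie above and to the right of both lines by selection.

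The most abundant of the 52 genes was C35B1.5, a protein-coding gene with 2 exons and a coding length of 453 bases on the reverse strand of chromosome IV (4083603 to 4084209, WBcel235). It stood at 1436 and 1137 FPKM in the cisplatin libraries, against 536 and 559 FPKM in the controls, and the half-width of its bounds was at most 5.22%. The groups did not overlap, and the log2 fold change was 1.22 ± 0.24 (limma's standard error, n = 2 libraries a group, as throughout). It is also 1 of the genes nearest to the threshold, with a difference of 1.02 in the second pair.

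F56A4.2 encodes the C-type lectin-like protein CLEC-209, of a family that binds carbohydrates in other animals and many of whose members respond to pathogens in the worm. It had 445 and 372 FPKM with cisplatin, against 134 and 129 FPKM in untreated animals, a log2 fold change of 1.63 ± 0.19. Of the 52 standard errors this was the lowest, and the range when each library was left out in turn was 1.498 to 1.76. The gene lies on chromosome V (2459637 to 2460893, forward strand) in 4 exons.

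F35E12.6, the next by level, had 245 and 147 FPKM in cisplatin libraries, against 79.9 and 62.7 FPKM in control libraries. The lower of the cisplatin values was still above both controls, and the log2 fold change was 1.42 ± 0.29. Its position on chromosome V, beside an infection response gene, is taken up with the other clustered genes. The next genes were far lower, with C18H9.6 at a mean of 32.9 FPKM.

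C18H9.6 had 36.1 and 58.7 FPKM with cisplatin, against 11.5 and 25.3 FPKM in the controls, so that the library numbered 2 was the higher in each group. Its log2 fold change was 1.40 ± 0.44, or 0.85 without control 1 and 1.95 without control 2. R09E10.2 showed a wider spread of the same kind. It had 18.4 and 58.9 FPKM in the cisplatin libraries, against 0.31 and 10.2 FPKM in the control libraries, and its log2 fold change was 3.50 ± 1.22, the largest of the better-covered genes. The groups did not overlap, but the value was 1.65 without control 1 and 5.36 without control 2, and the bounds of control 1 reached 0.

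B0205.13, C34H4.1 and E03H4.8, each protein coding, were also among the 10 genes of highest mean level. B0205.13 had 36.9 and 24.4 FPKM with cisplatin, against 12.65 and 10.5 FPKM in the controls. C34H4.1 had 37.5 and 24.6 FPKM, against 15.6 and 12.02 FPKM, and is the gene just inside the threshold, with a difference of 1.01 in the second pair. Its exons overlap those of Y41D4B.18 on the same strand. E03H4.8 had 25.8 and 22.9 FPKM with cisplatin, against 8.28 and 11.0 FPKM in the controls. In all 3 the cisplatin values lay above both controls, and the log2 fold changes were 1.34 ± 0.35, 1.12 ± 0.34 and 1.31 ± 0.35 in the order named.

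Among better-covered genes of lower level, several had closely matching values within each group. C17H12.6 (chromosome IV, 6821065 to 6822506, reverse strand, 7 exon blocks) had 15.3 and 13.0 FPKM with cisplatin, against 2.55 and 3.22 FPKM in the controls, a log2 fold change of 2.12 ± 0.53. W06H8.2 on chromosome V, with a coding length of 1359 bases, had 7.90 and 6.66 FPKM with cisplatin, against 1.32 and 1.48 FPKM in the controls, a log2 fold change of 2.03 ± 0.65. F17B5.8 had 11.8 and 15.4 FPKM with cisplatin, against 3.55 and 3.07 FPKM in the controls, a log2 fold change of 1.88 ± 0.52. Its exons overlap those of F17B5.2 on the other strand, so its values may hold reads of that gene. In these 3 genes the values of a group differed less from each other than from the other group, and the lowest log2 fold change with 1 library left out was 1.70.

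*mul-1* (F49F1.6), named for a mucin-like protein, had 8.85 and 13.1 FPKM with cisplatin, against 2.53 and 3.85 FPKM in the controls, a log2 fold change of 1.64 ± 0.58. Its difference was nearly equal in both pairs, at 1.63 and 1.65. *nxnr-1* (Y52E8A.3) had 12.3 and 18.9 FPKM with cisplatin, against 1.20 and 5.93 FPKM in the controls. Its log2 fold change of 2.26 ± 0.76 was 1.30 without control 1 and 3.22 without control 2, and its exons overlap those of a gene on the other strand. The sources used here do not say whether the counting used strand, so reads of both genes cannot be told apart. Y37H2A.7 and F56D5.3 also had a low control 1, with 5.82 and 7.55 FPKM in the cisplatin libraries, against 0.91 and 3.40 FPKM in the controls, for the first, and 5.09 and 10.6 FPKM, against 1.19 and 3.82 FPKM, for the second. Their log2 fold changes were 1.60 ± 0.76 and 1.54 ± 0.77, and without control 1 they were 0.87 and 0.86. Exons of F56D5.3 also overlap those of a gene on the other strand, F56D5.2. *nssp-90* (C30F2.4) belongs to the thinly covered genes, with 10.2 and 5.05 FPKM in cisplatin libraries, against 1.59 and 1.65 FPKM in control libraries.

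Of the 48 genes matched to the annotation, 9, or 18.8%, lay within 10 kb of another gene that met the same conditions, named or not. The share was 2.95% of all genes tested. Among the 9, F01D5.2 and F01D5.3 overlap and each counts the other, and so do the nested C16C8.13 and C16C8.14. All 9 were better-covered genes. On chromosome IV, an interval of 59788 bases (12918556 to 12978343) held 14 genes tested, of which 8 met the conditions. They are C32H11.3, C32H11.9 and F55G11.4 of the 52, the named genes *dod-21*, *dod-24* and *dod-17*, and the left-out C32H11.4 and F55G11.2. The *dod* genes were named for lying downstream of DAF-16, the FOXO transcription factor of the insulin pathway, and *dod-21*, *dod-24* and *dod-17* encode proteins with CUB-like domains.

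C32H11.9, or *cld-1*, lies 467 bases from *dod-21* and had 17.4 and 9.70 FPKM with cisplatin, against 2.78 and 3.25 FPKM in the controls. The log2 fold change was 1.95 ± 0.57, and that of *dod-21* was 1.66 ± 0.53. C32H11.3 begins the interval, 871 bases from C32H11.4. It had 6.21 and 4.95 FPKM in the cisplatin libraries, against 1.12 and 1.45 FPKM in the controls, a log2 fold change of 1.77 ± 0.67, while that of C32H11.4 was 3.06 ± 0.29. F55G11.4, or *mbug-1*, lies 700 bases from *dod-17* and had 20.6 and 15.5 FPKM with cisplatin, against 5.99 and 7.07 FPKM in the controls, a log2 fold change of 1.39 ± 0.42. For *dod-17* it was 2.17 ± 0.26. In each of these 3 genes both cisplatin values lay above both control values, which the selection makes likely. The genes between them did not share the difference throughout, since *dod-22* had -0.39 ± 0.42 and C32H11.7 had 0.38 ± 0.42.

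On chromosome V, F35E12.6 (13734309 to 13736247, reverse strand, 10 exon blocks) lies 763 bases from *irg-5* (F35E12.5), an infection response gene with a CUB-like domain that was left out of the selection and had a log2 fold change of 2.96 ± 0.38. *dct-17*, on its other side, also met the conditions, with 1.11 ± 0.31. F35E12.6, at 1.42 ± 0.29, was the most abundant of these genes in every library. The gene between F35E12.6 and *dct-17*, F35E12.4, had differences of 0.39 and 1.27 in the 2 pairs, and 4 genes farther out did not meet the conditions.

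**Figure D3:**
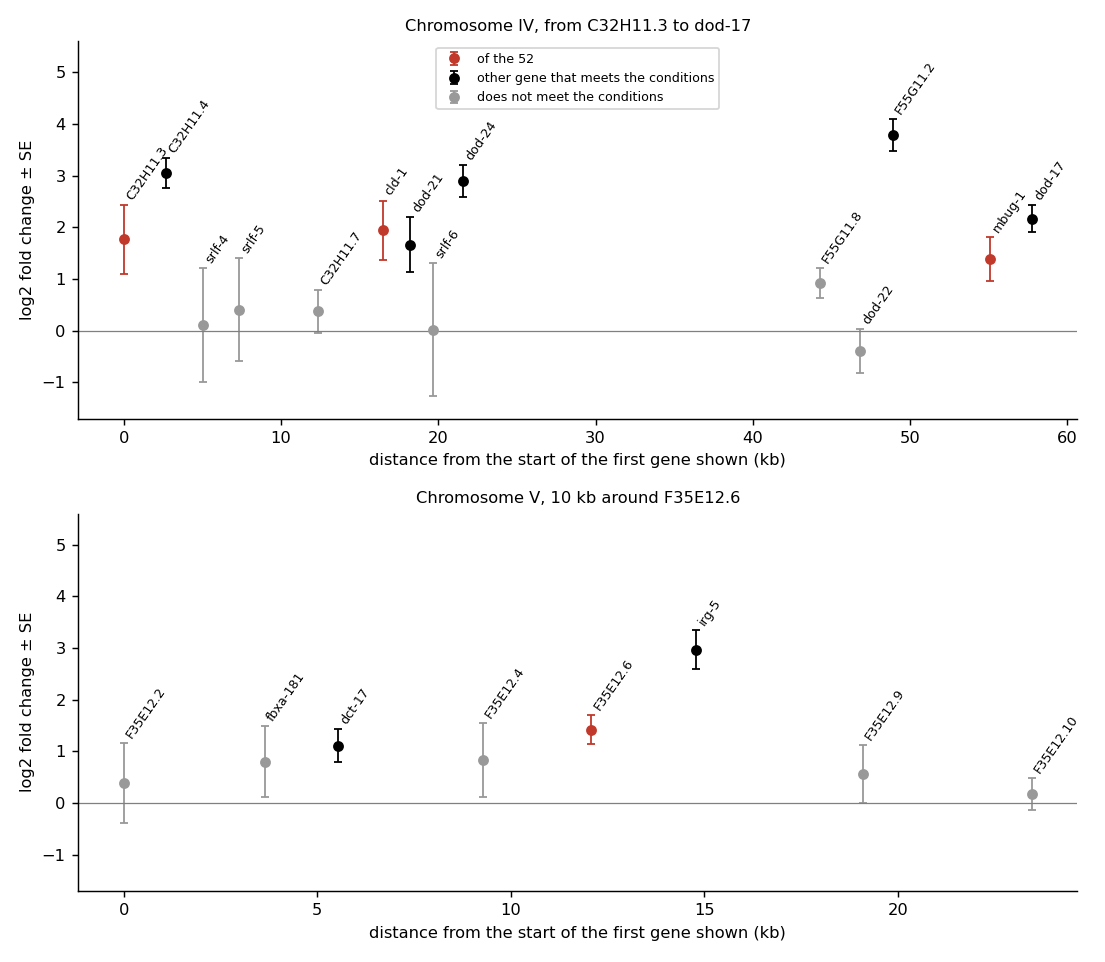
Log2 fold change with its standard error for each gene tested, cisplatin over control, by distance along chromosome IV from C32H11.3 to *dod-17* (top) and along chromosome V around F35E12.6 (bottom). Red points are 3 of the 52 genes above and 1 below, black points are other genes that met the conditions, and grey points are genes that did not, such as *dod-22* at -0.39.

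On chromosome II, 2 of the 52 genes, F01D5.2 and F01D5.3, overlap at their ends on the reverse strand (13998460 to 13999064 and 13999059 to 14000144). F01D5.2 had 12.9 and 14.7 FPKM with cisplatin, against 2.07 and 0.73 FPKM in the controls, a log2 fold change of 3.004 ± 0.67. F01D5.3 had 32.9 and 29.6 FPKM in the cisplatin libraries, against 12.9 and 7.28 FPKM in the controls, a log2 fold change of 1.63 ± 0.38. In both genes the difference was larger in the second pair, while it was larger in the first pair in 70.3% of all genes tested. The neighbour F01D5.1 had differences of 0.80 and 1.01, just short of the conditions, while F01D5.4 had -0.02 and 0.12.

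C16C8.14 lies within the span of *gldi-6* (C16C8.13) on the same strand of chromosome II, from 3449814 to 3451058 inside 3446947 to 3452414. C16C8.14 had 21.1 and 21.2 FPKM with cisplatin, against 5.93 and 10.2 FPKM in the controls, and *gldi-6* had 5.43 and 6.12 FPKM, against 1.27 and 2.72 FPKM. Their log2 fold changes of 1.38 ± 0.42 and 1.39 ± 0.69 were nearly the same. In the current annotation their exons do not overlap each other. Exons of *gldi-6* overlap those of C16C8.20, and exons of C16C8.14 those of C16C8.25, on the same strand. C16C8.20 had a log2 fold change of 0.40 ± 0.54. The sources used here do not say how reads were divided between overlapping genes. C16C8.4, on the other strand nearby, had differences of 1.56 and 0.67. C49G7.12, on chromosome V, lies 4964 bases from *cyp-35A4*, a cytochrome P450 gene. It had 11.4 and 7.51 FPKM with cisplatin, against 2.92 and 2.88 FPKM in the controls, a log2 fold change of 1.52 ± 0.59. The log2 fold change of *cyp-35A4* was 1.21 ± 0.84 at no more than 2.70 FPKM in any library.

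By the width of their bounds, the 29 thinly covered genes rest on few fragments. Where a gene has very few, its FPKM values stand in the ratio of small whole numbers once scaled by what 1 fragment is worth in each library, which was 1.00, 0.936 and 1.00 in cisplatin 2, control 1 and control 2 relative to cisplatin 1. In 23 of the 29 genes the 4 values were within 0.1 of such whole numbers, which were searched only up to 6. Many ratios can match at this tolerance, above all where only 2 values are above 0. The count was not set beside that of other genes, so it is no evidence of few fragments. Under this reading, the smallest numbers that give these ratios add up to between 2 and 10 over the cisplatin libraries, with a median of 4, and to between 0 and 3 over the control libraries, with a median of 1. The true numbers could be multiples of these, and the ratios do not come from counts in the table.

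C44C11.6, T23D8.13 and W02A2.9 stood in a ratio of 1 to 1 between the cisplatin libraries and were listed at 0 in both controls. Their values were 4.72 and 4.61 FPKM, 4.57 and 4.47 FPKM, and 3.93 and 3.85 FPKM in the cisplatin libraries. The bounds of each of these values reached 0. The other 7 genes listed at 0 in both controls were Y54G2A.48, C30G4.5, F39B2.14, Y7A5A.10, C24D10.9, W06H8.12 and T07G12.14. None of their cisplatin values was above 4.83 FPKM. Over all genes tested, 36 were listed at 0 in both controls and 26 in both cisplatin libraries.

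Other large differences also stood in thinly covered genes. Y55F3AM.23 had 27.2 and 39.2 FPKM with cisplatin, against 12.9 and 0 FPKM in the controls, in a ratio of 2 to 3 to 1 to 0. Its log2 fold change of 3.68 ± 1.42 was the largest of the 52 genes with a value above 0 in a control, and its difference was 1.05 in the first pair and 6.31 in the second. Y50D4B.1 had 25.8 and 24.7 FPKM, against 12.2 and 0 FPKM, in a ratio of 2 to 2 to 1 to 0, and a log2 fold change of 3.35 ± 1.40. Y38F2AL.12 had 4.05 and 11.9 FPKM with cisplatin, against 0 and 3.87 FPKM in the controls, in a ratio of 1 to 3 to 0 to 1. In this gene control 2 lay just below cisplatin 1, so the groups nearly met although each pair passed the threshold.

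In 9 genes 1 of the controls was listed at 0 and the other was not, control 1 in 7 of them and control 2 in Y55F3AM.23 and Y50D4B.1, and the sizes of their differences depend on the pseudocount of 0.5. Control 1 also had the larger number of genes at 0 among all genes tested, 281, against 201 in cisplatin 1, while cisplatin 2 had 72 and control 2 had 68. T24D5.6 had 1.52 and 2.03 FPKM with cisplatin, against 0 and 0.50 FPKM in the controls. C36B7.8 had 2.48 FPKM in each cisplatin library, against 0 and 0.81 FPKM in the controls. The lowest log2 fold changes of the 52 genes were 1.01 ± 0.75 for Y92H12BR.4, 1.04 ± 0.93 for T27A3.8 and 1.095 ± 0.91 for F35G2.5. In these 3 genes the library numbered 2 was the higher in either group, and the groups overlapped in T27A3.8 and F35G2.5, where control 2 lay above cisplatin 1. Y92H12BR.4 had 0.51 and 1.52 FPKM with cisplatin, against 0 and 0.50 FPKM in the controls.

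Gene type in the annotation was read as well. The 52 genes include 3 snoRNA genes (T23D8.13, F39B2.14 and Y55F3AM.23), 2 ncRNA genes (W06H8.12 and F56F3.7) and 2 pseudogenes (Y92H12BR.4 and T07G12.14), together 7 of the 48 genes matched to the annotation, or 14.6%, beside 3.82% of all genes tested. The snoRNAs guide the modification of other RNAs and do not usually carry a poly-A tail, while these libraries were made by poly-A capture. Each of the 3 lies within a gene on the same strand. T23D8.13 is inside T23D8.8, F39B2.14 inside F39B2.9 and Y55F3AM.23 inside Y55F3AM.7, and their exons overlap those of that gene, so fragments of the larger gene can be counted in them. None of the 7 was among the better-covered genes. Annotated as protein coding were 41 of the 52 genes, 7704 of the 8323 unnamed genes tested and 6593 of the 6742 named ones. Genes not matched to the annotation are in these totals. Pseudogenes were 4.17% of the matched genes of the 52, beside 2.73% of all genes tested. The shares were not taken over all thinly covered genes. The identifiers C36B7.8, C16D6.1, C30G4.5 and C24D10.9 were not matched.

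The 41 protein-coding genes had a median coding length of 447 bases, beside 1056 bases over all protein-coding genes tested, and 14 of them, or 34.1%, had under 300 bases, beside 5.73% of all. Over the unnamed genes tested the median was 903 bases, and 8.19% of the protein-coding ones had under 300. Of the 23 better-covered genes, 1 had a coding length under 300 bases, B0205.13 with 297, and their median was 861 bases. Among 52 named genes that met the same conditions, the median was 720 bases, and 6 of 49 protein-coding genes had under 300 bases. Among the 39 unnamed genes at least 1 lower with cisplatin the median was 372 bases, with 12 of 33 under 300. Short genes stood among the unnamed genes past the threshold in either direction. Exons of 19 of the 48 genes overlap those of another annotated gene. This was not counted over all genes tested, so it is not a trait of the 52. T27D12.6, C37A5.11, F14D2.5, R10H10.4 and Y46H3A.4 are among the short genes with values above 0 in every library. C37A5.11, whose exons overlap those of 3 genes, had 10.2 and 6.73 FPKM with cisplatin, against 1.59 and 1.65 FPKM in the controls.

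**Figure D4:**
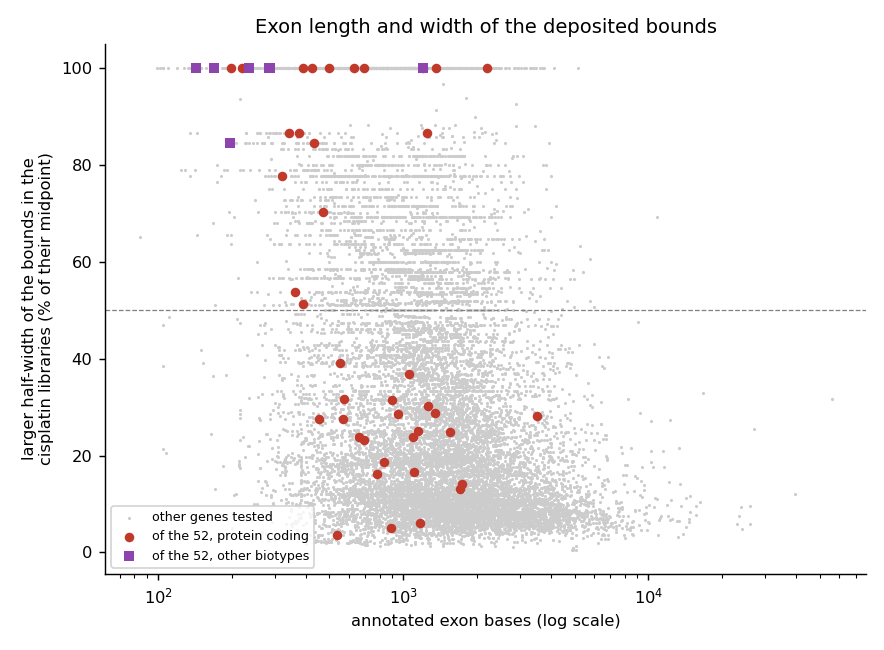
Annotated exon bases (horizontal axis, log scale) and the larger of the half-widths of the deposited bounds in the 2 cisplatin libraries, as a percentage of their midpoint (vertical axis), for genes tested (grey), protein-coding genes of the 52 (red) and the 7 of other biotypes (violet squares). The dashed line marks 50%, above which all 7 squares lie.

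By chromosome, 17 of the 52 genes lay on IV, beside 17.2% of all genes tested, while III held 3 and X held 6. The other genes were spread over I with 8, II with 9 and V with 9. The share on IV was 32.7%, and the interval around *dod-24* supplied 3 of the 17. These counts were not tested.

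At the threshold, the smaller of the 2 differences was 1.01 for C34H4.1, 1.01 for Y92H12BR.4 and 1.02 for C16C8.14, which are just inside. Just outside were F41C3.1 and F49E12.9 at 0.98 each, and C49G7.6, also at 0.98, which shares its clone with C49G7.12. F41C3.1 had 7.58 and 4.39 FPKM with cisplatin, against 2.99 and 1.98 FPKM in the controls. Within 0.1 of the threshold there were 16 genes inside and 17 unnamed genes outside, so the number 52 depends on where the threshold lies. When all 4 differences between a cisplatin and a control library had to be at least 1, rather than 2, 31 of the 52 genes remained. C35B1.5, F56A4.2, C17H12.6, W06H8.2 and F17B5.8 were among the 14 better-covered ones of these 31. The count rests on the values that selected the genes, so it describes them, and it was not made over named genes.

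The replicate number gives a difference that the selection did not use. The error of that difference draws in part on how far the 2 pair differences of a gene lie apart, and the selection bounded both. Libraries numbered 2 were set against libraries numbered 1 within the treatment groups with limma (adjustment after Benjamini-Hochberg over all genes tested). At an adjusted p under 0.05, 28.8% of all genes were higher and 4.91% lower in the libraries numbered 2. Of the 52 genes, 9 were higher and 3 were lower, or 17.3% and 5.77%. How these shares stand to those of all genes depended on the scaling. In both directions together, 23.1% of the 52 and 33.7% of all genes passed, while 42.3% of the 52 and 26.9% of all genes did after scaling each library to the same median, and 19.2% and 7.41% after quantile normalization. Of the 23 better-covered genes, 4 were higher and 1 was lower. The median difference was 0.01 over the 52 genes and 0.47 over all genes. Beside it, all 10 genes of a moulting list were higher in the libraries numbered 2 in both groups, and their summed level was 552 FPKM in cisplatin 2 and 637 FPKM in control 2, against 180 FPKM in cisplatin 1 and 165 FPKM in control 1, with none of them at 0. The part of stage in the values of the 52 genes was not tested.

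R09E10.2 differed most between the numbers, by 2.68 ± 0.37 (limma, adjusted p = 7.91e-07), and was higher in the library numbered 2 in both groups. C18H9.6 was higher by 0.90 ± 0.20 (limma, adjusted p = 0.000953) in the same way, and F35E12.6 was lower in the libraries numbered 2, at -0.54 ± 0.14 (limma, adjusted p = 0.0047). *nxnr-1* and F56D5.3 were higher, by 1.26 ± 0.40 and 1.17 ± 0.45. The other 7 genes past the threshold were thinly covered. Y38F2AL.12, T27A3.8, F35G2.5, F55B12.10 and Y50D7A.13 were higher by between 1.12 and 2.29, and Y55F3AM.23 and Y50D4B.1 had -2.11 and -2.36 on ratios of 2 to 3 to 1 to 0 and 2 to 2 to 1 to 0. Of the 12 genes, 9 passed after median scaling and 1 after quantile normalization. The fit has 1 residual degree of freedom and borrows its error from genes of similar level. Y55F3AM.23, with differences of 1.05 and 6.31 in the 2 pairs, had an error of 0.54. That is near the 0.46 of T23D8.13, where the differences were 3.34 and 3.31. The errors and p-values of single genes therefore say little about the spread of that gene. When errors were not taken to follow the level, limma passed 1 gene of all and 0 of the 52, with 13 of the 52 at an unadjusted p under 0.05.

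**Figure D5:**
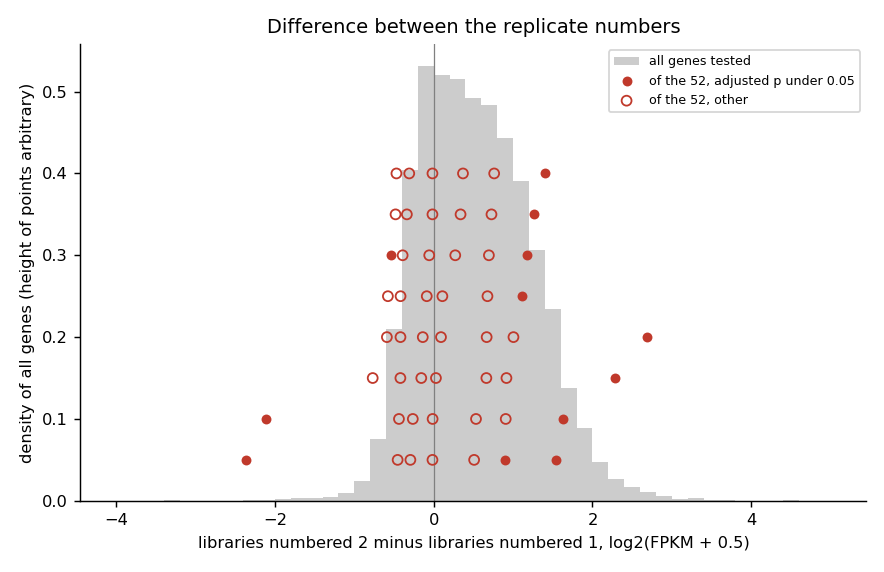
Difference between libraries numbered 2 and libraries numbered 1 on the log2(FPKM + 0.5) scale, with treatment as a term, as a density over all genes tested (grey bars) and for each of the 52 genes (points, at arbitrary height). Filled points are the 12 genes with an adjusted p under 0.05, of which 9 lie to the right of 0 and 3 to the left.

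Markers of tissues and pathways were read for the treatment as well. All 30 genes of the major sperm protein family were lower with cisplatin in both pairs, and their summed level was 2737 and 3177 FPKM with cisplatin, against 6855 and 5500 FPKM in the controls, with none at 0. As a background, 38.4% of the genes tested had a higher value with cisplatin in each of the pairs and 15.7% a lower one. Of 7 intestinal genes, 3 were higher and 1 was lower in each pair, with sums of 2830 and 2447 FPKM, against 2361 and 1970 FPKM. A list of 6 targets of SKN-1, the worm's Nrf factor, was higher in both pairs throughout, with sums of 1462 and 1350 FPKM in cisplatin libraries, against 347 and 495 FPKM in control libraries. Yolk genes were lower in both pairs in 6 of 6, and 6 of 8 oocyte and eggshell genes were higher, with sums of 2728 and 2095 FPKM with cisplatin, against 2660 and 1860 FPKM in the controls. Whether the 52 genes are expressed in any of these tissues was not tested.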

How the data were processed

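The authors aligned reads of the 4 libraries to WBcel235 with TopHat, dropped reads that mapped to several places and used Cufflinks and Cuffdiff. They deposited for each gene an FPKM value and its confidence bounds per library, which are not counts. Their pooled FPKM, fold changes, p-values and q-values were not used. The genes and lists were chosen with earlier results of these data known. After leaving out 88 genes with a failed estimate and those averaging under 0.5 FPKM, limma (version 3.58.1, R version 4.3.3) was fitted to log2(FPKM + 0.5), letting errors follow the level, with Benjamini-Hochberg adjustment at 0.05. On simulated data, the fit recovered 49.3% of log2 differences of 1 between replicate numbers and 92.2% of those of 2. Of its calls, 6.48% were wrong. The simulated errors were drawn from the fit itself, so this run cannot test whether those errors are right. The cisplatin effect was fitted without a replicate block. The labels do not say that replicate numbers pair cultures. The p-values rest on a spread between these libraries that is largely borrowed from genes of similar level, and not on that of each gene alone. With 2 against 2, no permutation test can pass 0.05, and none was made. Annotation came from Ensembl release 115 and RefSeq, both of WBcel235. Named genes were those with the 10 largest fold changes, the 10 highest levels, those at the threshold, at 0 in both controls, with a current name, within 10 kb of another member, or with the 5 highest or lowest differences between numbers. Other members were named as examples after their values were seen. Protein comparisons and promoter motifs were planned and not run, because no sequences were used here.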

Additional observations from a re-analysis of the deposited data

How the results depend on the processing

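Counting precision in the cisplatin libraries limits 29 of the 52 genes, and 2 libraries a group limit the rest. Some of the rest also have wide bounds in the controls. The number of genes found was 90 with a pseudocount of 0.1, 34 with 1, 24 when genes had to average 5 FPKM and 31 with all 4 differences at least 1, and between 164 and 724 with 1 pair left out. It stayed within 1.5 times under the other settings tried. Scaling each library to the same median gave 44 genes, 43 of them shared, and quantile normalization 49, 41 of them shared. The median log2 fold change was 2.06 with a pseudocount of 0.1, 1.40 with 1, 1.52 after median scaling, 1.64 with a replicate block and between 1.61 and 1.89 with 1 library left out. No log2 fold change of the 52 genes turned, and 37 stayed at or above 1 whichever library was left out, the lowest being 0.22, for T27A3.8 without control 1. The genes were selected on these same values, so the 37 describe them and are no support, and no count over other genes stands beside them. Deviations of same-numbered libraries correlated over genes with r = 0.59, in 2 pairs. Between replicate numbers, 12 genes passed, a share of 23.1% beside 33.7% of all genes. After median scaling 22 passed, 9 of them among the 12 (42.3% beside 26.9%), and after quantile normalization 10, 1 among the 12 (19.2% beside 7.41%), so the share of the 52 was below that of all genes on the deposited scale and above it on both others. Without an intensity trend 0 passed and 1 gene of all did, and limma with any 1 library left out gave 0 of the 52 and between 0 and 2493 of all genes. Those last fits have no treatment term, so the difference that selected the 52 genes is in their error, and the 0 says nothing about the 52. The cause of these moves was not tested. The protein and promoter comparisons were not run.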
